A study of Mus musculus with 12 samples.

Results

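The inflammatory and alarmin cytokines were taken as the 10 gene symbols Il1a, Il1b, Il1rn, Il18, Il33, Il6, Tnf, Csf1, Csf2 and Il10, matched by name in the gene tables, 10 of 23238 symbols. All 10 had a count in some library, and 9 of them passed the low-count filter that left 13054 genes for testing. Csf2 did not pass. They were picked by name and not by a threshold on their values.

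The data were counts of sequenced transcript ends from alveolar type II (ATII) cells, the surfactant-producing cells of the lung alveolus, sorted from mouse lung by antibodies to CD74 and Ep-CAM. Each of the 4 groups held 3 libraries. Con cells came from mice labelled as negative controls for the p300 knockout and given PBS into the trachea, and BLM cells came from mice with the same control label given bleomycin, a DNA-breaking drug that injures the lung epithelium, at 4 mg/kg. KO and KOBLM cells came from mice labelled p300 knockout, given PBS and bleomycin respectively. In the knockout, LoxP sites flank exon 9 of p300 (gene Ep300), a histone acetyltransferase and transcriptional coactivator, and the tamoxifen-inducible Spc-CreERT2 transgene confines the deletion to cells using the promoter of surfactant protein C. Tamoxifen at 10 mg/kg was given at 8 weeks of age before bleomycin, by a protocol that the labels give for every sample. The study's supplement speaks of ATII cells isolated after vehicle or tamoxifen, so the controls may have had vehicle, in which case tamoxifen and genotype cannot be told apart. The controls are called WT in the sample titles, C57BL/6 in the study's methods for cell isolation and floxed without deletion in its Results, so whether they carried the floxed allele cannot be told from these sources. The interval between bleomycin and cell sorting is not given in the sources used here.

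Interleukin-1 alpha and beta (Il1a, Il1b) bind the same receptor and switch on NF-kB through MyD88 and the IRAK kinases, and the receptor antagonist encoded by Il1rn occupies that receptor without signalling. Pro-IL-1 beta and pro-IL-18 are cut to their active forms by caspase-1 in inflammasomes, whereas IL-1 alpha and IL-33 are alarmins, held in intact cells and released when a barrier is damaged. In the injured lung these cytokines come from epithelial cells, macrophages and neutrophils, and p300 acetylates histones at many of the genes that NF-kB and C/EBP factors switch on.

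The genes lie at the following places on GRCm38, the assembly that mm10 denotes, in the GENCODE M21 annotation. Il1a (chr2:129299610-129309972) and Il1b (chr2:129364570-129371139) lie on the minus strand of chromosome 2 with 7 exons each, and Il1rn (chr2:24336853-24351494) lies on its plus strand with 5 exons. Il18 (chr9:50554827-50581840, plus strand) has 6 exons and Il33 (chr19:29925114-29960718, plus strand) has 8. Il6 (chr5:30013114-30019981, plus strand), Tnf (chr17:35199381-35202007, minus strand) and Csf2 (chr11:54247271-54249667, minus strand) have 4 exons each. Csf1 (chr3:107741048-107760469, minus strand) has 9 exons and Il10 (chr1:131019845-131024974, plus strand) has 5. The sequencing kit reads the 3′ end of a transcript, so every value below stands for the stretch near that end, and the levels of genes of different length can be set side by side.

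RefSeq sequence before the transcription start was at hand for 9 of the 10 genes. The 250 bases before the start are shown for Il1b, the gene called higher after bleomycin, and for Csf1 and Il6, the genes with an NF-kB match in this window and higher mean counts in BLM than in Con. Each is written 5′ to 3′ in the direction of the gene, from GRCm38.p6, and capitals mark matches on either strand to NF-kB (GGNNTTTCC), C/EBP (TTGCNNAA) or AP-1 (TGANTCA).
Il1b, chr2:129371140-129371389, minus strand: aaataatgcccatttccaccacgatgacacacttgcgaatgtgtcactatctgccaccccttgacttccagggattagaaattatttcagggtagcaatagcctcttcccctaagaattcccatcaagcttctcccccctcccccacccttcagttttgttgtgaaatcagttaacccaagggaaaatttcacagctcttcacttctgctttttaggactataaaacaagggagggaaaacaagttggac
Csf1, chr3:107760470-107760719, minus strand: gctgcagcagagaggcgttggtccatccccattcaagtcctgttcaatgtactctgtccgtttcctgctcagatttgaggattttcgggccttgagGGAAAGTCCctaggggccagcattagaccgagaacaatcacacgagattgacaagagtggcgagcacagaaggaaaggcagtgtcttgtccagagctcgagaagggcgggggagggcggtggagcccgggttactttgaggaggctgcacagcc
Il6, chr5:30012864-30013113, plus strand: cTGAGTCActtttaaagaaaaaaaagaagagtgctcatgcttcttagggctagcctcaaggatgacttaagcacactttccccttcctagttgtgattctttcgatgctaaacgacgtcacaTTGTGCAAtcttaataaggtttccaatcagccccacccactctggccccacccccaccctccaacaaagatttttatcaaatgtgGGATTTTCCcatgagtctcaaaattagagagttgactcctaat
In windows that also held 50 bases after the start, 5.82% of 32851 promoters had the NF-kB letters, 10.8% the C/EBP letters and 7.81% the AP-1 letters. Il6 held all of these motifs, with NF-kB at -43 to -35, C/EBP at -128 to -121 and AP-1 at -249 to -243 from the start base. Csf1 held the NF-kB letters at -154 to -146. No match stood in the windows of Il1b, Il18 or Tnf. The Il1a window had AP-1 at -12 to -6. Il1rn had AP-1 before the first of its starts and NF-kB beside the other starts, Csf2 had C/EBP and NF-kB, and the downstream start of Il33 had C/EBP. These matches are letters only, and no binding was measured in these files.

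Total counts per library ran from 7005005 to 11153154. A floor of 3 counts per library corresponded to 0.269 to 0.428 CPM, where CPM is the count scaled to the library total. Without molecular identifiers, reads can be copies of 1 molecule, so this floor allows for counting error alone. Levels below are CPM scaled by the TMM method of edgeR. A gene was called higher or lower when edgeR's quasi-likelihood test gave p under 0.05 before adjustment and the change exceeded 1.5-fold. Adjusted values are by Benjamini-Hochberg over all tested genes, SE is the standard error of a log2 fold change, and all tests are two-sided. Ep300 averaged 109 ± 53.5 CPM in Con against 142.9 ± 46.4 CPM in KO by label, and 85.4 ± 45.4 CPM in BLM against 111.8 ± 62.3 CPM in KOBLM (SD, n = 3 each), so its counts did not fall with the label. The Ep300 transcript runs on for 6453 nt after exon 9 and is read at its far end, so these counts check nothing about the deletion. Con and BLM are compared with KO and KOBLM by label.

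The library labelled BLM 3 stood apart. It held 6847 genes with a count against 8790 to 13838 in the other libraries, and its counts followed those of the other BLM libraries with Spearman coefficients of 0.473 and 0.478 across genes, while pairs in the same group otherwise gave 0.693 to 0.889. Genes are not independent replicates. Of the cytokines, BLM 3 had 600 counts of Il1b, 1 count of Il1rn, 1 count of Csf1 and 0 counts of the other 7. Values without this library are given beside the comparisons with BLM.

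The sort was checked against marker genes. Sftpc, the surfactant protein C gene, was detected in all 12 libraries at 5 to 5720 counts, Lamp3 was at 0 in BLM 3, KOBLM 2 and KOBLM 3, and Abca3 was at 0 in BLM 3 and KOBLM 2. A list of 12 ATII markers, which includes Cd74, also a gene of macrophages, summed to between 770.9 and 3686 CPM per library. A list of 17 macrophage markers summed to 763.1 CPM in BLM 3 and to between 9635 and 36270 CPM elsewhere, and this sum was above the ATII sum in 11 of the 12 libraries. A large part of the macrophage sum was 1 gene, Chil3. It averaged 8189 CPM in Con, 2816 CPM in BLM, 14490 CPM in KO and 8631 CPM in KOBLM. Neutrophil markers, 9 of which were in the files, had sums of 98.78 to 3470 CPM over the Con libraries, 115.2 to 5820 CPM over BLM, 315.5 to 948.5 CPM over KO and 1395 to 2228 CPM over KOBLM. Between BLM and Con, 2 of the 11 tested ATII markers were called lower, 3 of 17 macrophage markers were called higher and 3 lower, 0 of 7 neutrophil markers were called in either direction, 2 of 10 lymphocyte markers were called lower and 1 of 4 fibroblast markers was called higher, while 0 of 6 endothelial markers were called. In that comparison 4.27% of all 13054 tested genes were called, 286 higher and 272 lower, and the marker lists are too short to set beside that share. In bulk counts of this kind fewer cells of a type and less RNA per cell cannot be told apart.

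Il1b was the cytokine called higher after bleomycin in the controls. It was present at 40.74, 68.05 and 207.9 CPM in Con 1, 2 and 3 and at 1588, 490.1 and 43.32 CPM in BLM 1, 2 and 3. In the knockout it was present at 55.12, 232.4 and 132.9 CPM in KO and at 538.7, 445.1 and 419.2 CPM in KOBLM. BLM 1, BLM 2 and the KOBLM libraries were thus above every PBS library, and BLM 3 lay within the range of Con. The mean rose from 105.6 ± 89.7 CPM in Con to 707.2 ± 795 CPM in BLM (SD, n = 3 each), 6.70-fold, a log2 difference of 2.74 (SE 0.98, exact permutation p = 0.3, edgeR p = 0.0139, or 0.995 when adjusted), a call that 4.27% of all tested genes shared. The smallest exact p that 3 libraries against 3 allow is 0.1. Without BLM 3 the BLM mean was 1039 ± 776 CPM (SD, n = 2) and the log2 fold change 3.30 (adjusted p = 0.162 by edgeR), and without BLM 1 it was 1.34 and the call was lost, as it was in a model of Con and BLM alone and with the replicate block. Between KOBLM and KO the groups did not overlap, at 467.7 ± 62.9 and 140.1 ± 88.9 CPM (SD, n = 3 each), 3.34-fold, and the log2 fold change of 1.74 (SE 0.94) did not pass the call rule (exact permutation p = 0.1, edgeR p = 0.0862, or 1 when adjusted). Groups without overlap were found for 6.87% of all tested genes there.

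Il1b did not pass the call rule by genotype. Its order of mean levels was BLM, KOBLM, KO and Con, and the libraries of BLM and KOBLM overlapped, as did those of KO and Con. KOBLM against BLM gave a log2 fold change of -0.60 (SE 0.92, exact permutation p = 0.8, adjusted p = 1 by edgeR) and KO against Con gave 0.41 (SE 0.92, exact permutation p = 0.6, adjusted p = 1 by edgeR). Without BLM 1 the KOBLM libraries came out higher than BLM, at a log2 difference of 0.81, and without BLM 3 the difference was -1.15. The effect of bleomycin in the knockout minus that in the controls was -1.0045 on the log2 scale (SE 1.30, adjusted p = 1 by edgeR), and -1.56 without BLM 3. Neutrophil markers moved with Il1b: the 5 libraries with the most Il1b were among the 6 with the highest neutrophil sum, the other one being Con 3 at 3470 CPM with 207.9 CPM of Il1b. The part of neutrophil RNA in the Il1b level was not tested.

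**Figure D1:**
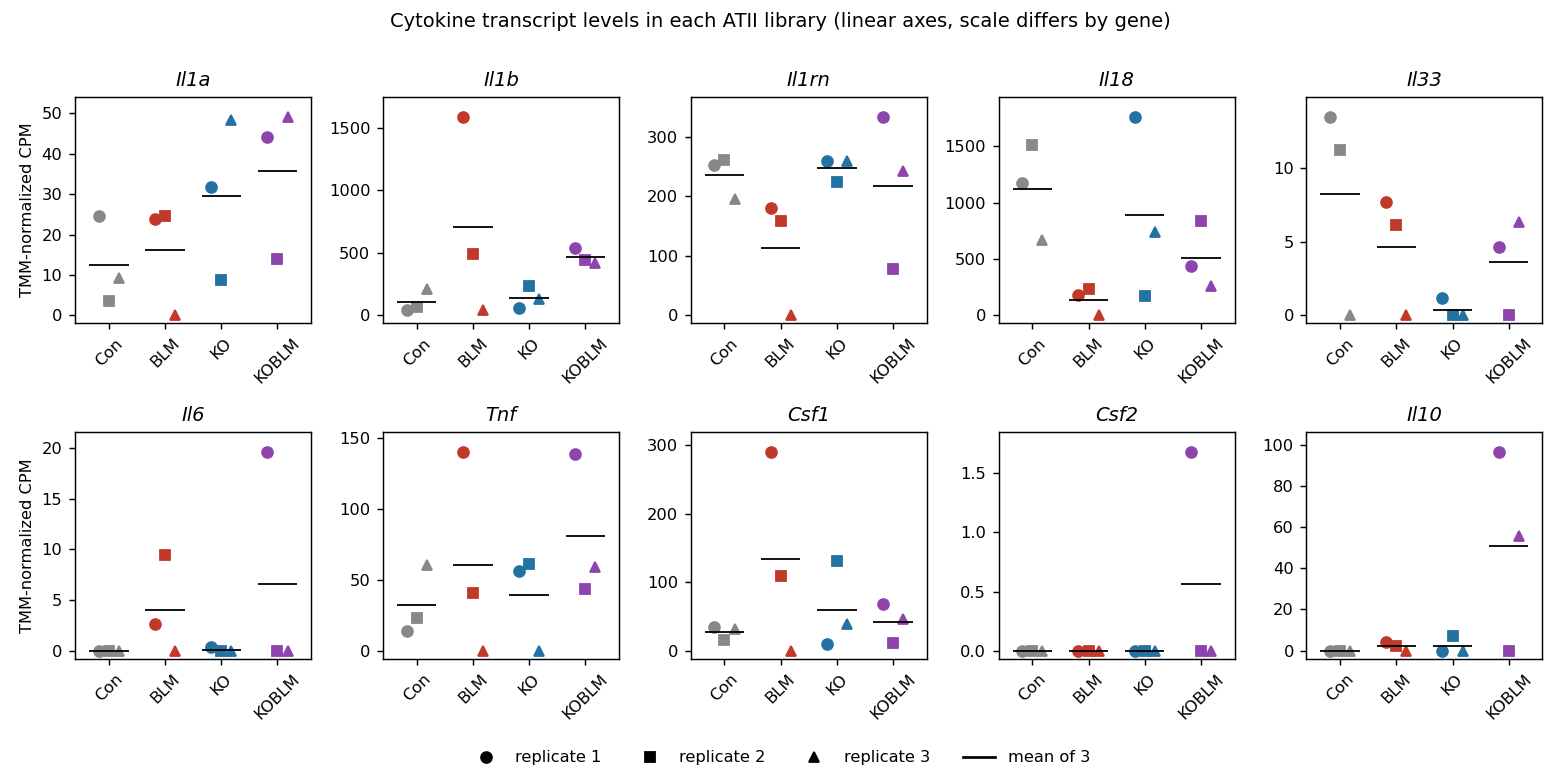
TMM-normalized CPM (linear vertical axes, scale differs by gene) of the 10 cytokines in each of the 12 ATII libraries, by group, with symbols for replicates 1 to 3 and a line at the mean of 3. Il1b in BLM 1, BLM 2 and KOBLM lies above all PBS libraries, Il18 in BLM lies below all Con and KOBLM libraries, and BLM 3 is at or near 0 for every gene except Il1b.

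Il1rn, the antagonist of the same receptor, had its lowest levels in BLM. It was present at 253.5, 261 and 194.8 CPM in Con and at 181, 158.7 and 0.0722 CPM in BLM, so that all BLM libraries were below all Con libraries, as 16.0% of all tested genes had groups without overlap there. The log2 fold change was -1.06 (SE 1.21) and did not pass the call rule (exact permutation p = 0.1, adjusted p = 1 by edgeR). Without BLM 3 the BLM mean was 169.9 ± 15.8 CPM (SD, n = 2) against 236.4 ± 36.3 CPM in Con, and the log2 fold change -0.48. In the knockout it was present at 258.6, 224.5 and 259.8 CPM in KO and at 334.2, 77.51 and 241.8 CPM in KOBLM, with overlapping groups and a log2 difference of -0.19 (SE 1.20, exact permutation p = 0.8, adjusted p = 1 by edgeR). The mean levels ran in the order KO, Con, KOBLM and BLM, and neighbours in that order overlapped.

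The counts of Il1b per count of Il1rn do not depend on the scaling of the libraries. This ratio was 0.161, 0.261 and 1.07 in Con, 8.77, 3.09 and 600 in BLM, 0.213, 1.04 and 0.511 in KO and 1.61, 5.74 and 1.73 in KOBLM. Every bleomycin library had a higher ratio than every PBS library, in both genotypes, BLM 3 included, where the ratio rests on 1 count of Il1rn. The mean log2 ratio was -1.49 ± 1.42 in Con, 4.47 ± 3.70 in BLM, -1.05 ± 1.14 in KO and 1.33 ± 1.03 in KOBLM (SD, n = 3 each), and without BLM 3 the BLM mean was 2.38 ± 1.06 (SD, n = 2). The ratio was chosen after the values were seen and carries no test. Of the 15 ratios among the 6 cytokines with the most counts, 9 separated BLM from Con, 2 separated KOBLM from KO and 1, this one, separated all bleomycin from all PBS libraries.

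**Figure D2:**
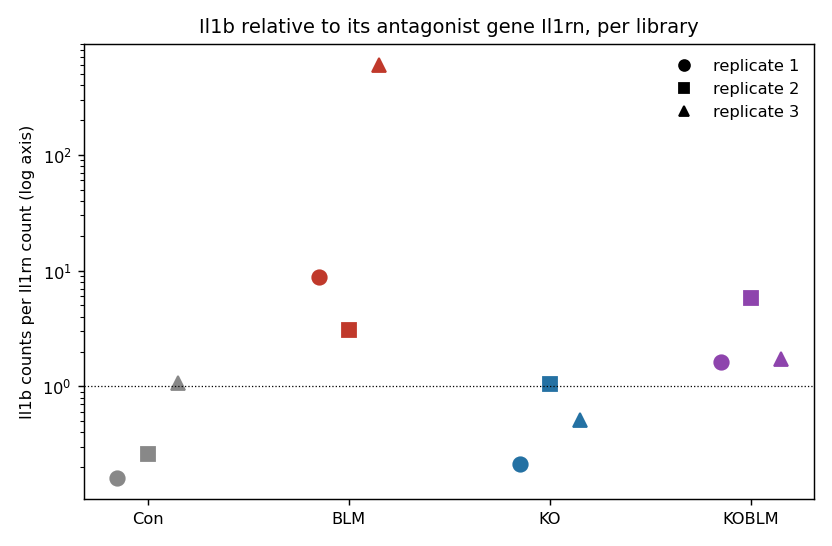
Il1b counts per Il1rn count (log axis) in each of the 12 libraries, by group, with symbols for replicates 1 to 3 and a dotted line at a ratio of 1. The 6 bleomycin libraries lie between 1.61 and 600 and the 6 PBS libraries between 0.161 and 1.07.

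Il1a, the alarmin of the IL-1 receptor, was less abundant than Il1rn in the 11 libraries other than BLM 3, where both were under 3 counts. It was present at 24.57, 3.57 and 9.32 CPM in Con, at 23.89, 24.5 and 0 CPM in BLM, at 31.8, 8.731 and 48.28 CPM in KO and at 44.25, 13.97 and 49.22 CPM in KOBLM. The means ran from 12.5 ± 10.9 CPM in Con through BLM and KO to 35.8 ± 19.1 CPM in KOBLM (SD, n = 3 each), and neighbours in that order overlapped. No comparison passed the call rule. The log2 fold change was 0.37 in BLM against Con (SE 1.62, exact permutation p = 1, adjusted p = 1 by edgeR; 0.95 without BLM 3), 1.15 in KOBLM against BLM (SE 1.64, exact permutation p = 0.3, adjusted p = 1 by edgeR; 0.57 without BLM 3) and 1.25 in KO against Con (SE 1.64, exact permutation p = 0.3, adjusted p = 1 by edgeR).

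Il18 had the highest mean level of the cytokines in Con, KO and KOBLM and the lowest of its own group means in BLM. It was present at 1173, 1514 and 667.3 CPM in Con and at 179.7, 234.4 and 0 CPM in BLM. In the knockout it was present at 1766, 168.5 and 738.1 CPM in KO and at 434.4, 834.5 and 257.1 CPM in KOBLM. All BLM libraries were below all Con and all KOBLM libraries, and KO 2 was far below the other KO libraries. The mean was 1118 ± 426 CPM in Con and 138 ± 123 CPM in BLM (SD, n = 3 each), 8.10-fold lower, a log2 difference of -3.02 (SE 1.46) that did not pass the call rule (exact permutation p = 0.1, edgeR p = 0.0571, or 0.995 when adjusted). Without BLM 3 it was -2.43 and passed the call rule (adjusted p = 0.515 by edgeR), and the BLM mean was 207 ± 38.7 CPM (SD, n = 2). With all libraries it also passed under scaling by DESeq2 size factors, at -3.05, or by library size alone, at -3.15. It passed as well by DESeq2, without the low-count filter and with the replicate block, but not in a model of Con and BLM alone.

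The order of mean Il18 levels was Con, KO, KOBLM and BLM. Con and KO overlapped, KO and KOBLM overlapped, and KOBLM and BLM did not, at 508.7 ± 296 against 138 ± 123 CPM (SD, n = 3 each). The log2 fold change of KOBLM against BLM was 1.88 (SE 1.40, exact permutation p = 0.1, adjusted p = 1 by edgeR), and 1.30 without BLM 3. Groups without overlap were found for 10.8% of all tested genes in that comparison. Between KOBLM and KO the log2 fold change was -0.81 (SE 1.36, exact permutation p = 0.7, adjusted p = 1 by edgeR), and the effect of bleomycin in the knockout minus that in the controls was 2.21 (SE 1.93, adjusted p = 1 by edgeR), and 1.62 without BLM 3. Il18 is a gene of both epithelium and macrophages. Macrophage marker sums were 12130, 11560 and 23500 CPM in Con and 10160, 12530 and 763.1 CPM in BLM, and members of the list went opposite ways. Mrc1 and Ear2, genes of resident alveolar macrophages, were called lower in BLM than in Con, and the complement genes C1qa, C1qb and C1qc were called higher. Siglecf, another gene of resident alveolar macrophages, had 170.7, 199.9 and 163.5 CPM in Con and 21.26, 35.94 and 0 CPM in BLM. In the knockout it had 212.6, 10.71 and 359.6 CPM in KO and 27.59, 246.4 and 26.07 CPM in KOBLM, so in KO it was lowest in KO 2 and in KOBLM highest in KOBLM 2, as Il18 was. Marco, another gene of the macrophage list, ran the other way within these groups. Its level was highest in KO 2, at 1705 CPM, and lowest in KO 1, at 516.3 CPM. In KOBLM it was highest in KOBLM 3, at 1582 CPM, and lowest in KOBLM 2, at 575.5 CPM. The log2 fold change of Marco in BLM against Con was -0.25 (SE 1.38). ATII marker sums were 1073 to 3686 CPM in Con and 1298 to 3087 CPM in BLM, while Sftpc ran from 129.4 to 618.8 CPM in Con and from 20.1 to 59.35 CPM in BLM. Cd74, shared with macrophages, alone averaged 1091 CPM of these sums in Con and 1438 CPM in BLM. The median log2 fold change of the 11 tested ATII markers was -2.06 in BLM against Con, with 3 of them positive. The part of either cell type in the Il18 level was not tested.

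Il33, the alarmin of ATII cells that signals through ST2, was sparse. It had 106, 104 and 0 counts in Con, 53, 42 and 0 in BLM, 11, 0 and 0 in KO and 33, 0 and 52 in KOBLM. Every group held at least 1 library at 0, and the groups overlapped in all comparisons. The mean was 8.25 ± 7.23 CPM in Con, 4.63 ± 4.08 in BLM, 3.64 ± 3.26 in KOBLM and 0.389 ± 0.673 in KO (SD, n = 3 each), and no comparison passed the call rule. KO against Con gave -4.35 on the log2 scale (SE 3.38, exact permutation p = 0.4, adjusted p = 1 by edgeR). Without BLM 3 the log2 difference was -0.25 in BLM against Con and -0.93 in KOBLM against BLM (adjusted p = 1 by edgeR for each).

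Tnf, the gene of tumour necrosis factor, had its highest levels in BLM 1 and KOBLM 1. It was present at 13.75, 23.37 and 60.05 CPM in Con, at 140.1, 40.78 and 0 CPM in BLM, at 56.08, 61.28 and 0 CPM in KO and at 138.9, 43.81 and 59.04 CPM in KOBLM. The means rank as KOBLM, BLM, KO and Con, and neighbours overlapped. BLM against Con gave a log2 fold change of 0.90 (SE 1.82, exact permutation p = 0.7, adjusted p = 1 by edgeR), where it was -0.67 without BLM 1 and 1.48 without BLM 3. That of KOBLM against KO was 1.04 (SE 1.82, exact permutation p = 0.5, adjusted p = 1 by edgeR).

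Il6, which signals through gp130 and STAT3, was near the floor. It had 18 counts in BLM 1, 64 in BLM 2, 3 in KO 1 and 140 in KOBLM 1, and 0 in the other 8 libraries. All Con libraries were at 0, so the mean of BLM, 4.00 ± 4.84 CPM (SD, n = 3), was at least 12.4-fold higher than the floor of 3 counts per library in Con, and the difference did not pass the call rule (exact permutation p = 0.4, edgeR p = 0.0654, or 0.995 when adjusted), nor did it without BLM 3 (adjusted p = 0.884 by edgeR). In the knockout the whole signal after bleomycin came from KOBLM 1, at 19.6 CPM, and KOBLM was at least 18.5-fold higher than the floor in KO (exact permutation p = 1, adjusted p = 1 by edgeR).

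Il10, the gene of an anti-inflammatory cytokine of macrophages and lymphocytes, was highest in KOBLM 1 and KOBLM 3. It had 0 counts in all Con libraries, 29, 16 and 0 counts in BLM, 0, 43 and 0 in KO and 689, 0 and 459 in KOBLM. These values correspond to 96.48 and 55.65 CPM in KOBLM 1 and 3, against at most 7.083 CPM in any other library. The KOBLM mean of 50.7 ± 48.4 CPM was 23.15-fold that of BLM, 2.19 ± 2.12 CPM (SD, n = 3 each), a log2 difference of 4.53 (SE 3.06) that did not pass the call rule (exact permutation p = 0.4, adjusted p = 1 by edgeR) and was 3.94 without BLM 3. BLM was at least 6.77-fold higher than the floor in Con (exact permutation p = 0.4, edgeR p = 0.0588, or 0.995 when adjusted) and passed the call rule without BLM 3, at a fitted log2 value of 7.84 (adjusted p = 0.861 by edgeR). KO was at least 7.30-fold higher than that floor (exact permutation p = 1, edgeR p = 0.0567, or 1 when adjusted), all of it from KO 2. The lymphocyte marker sum was 142.5, 20.2 and 145.6 CPM in KOBLM, lowest in the library without Il10. It was highest in KO 2, at 201.8 CPM beside 7.083 CPM of Il10, and was 114.7 CPM in BLM 2 beside 2.347 CPM of Il10. Il7r alone made up 171.8 CPM of the sum in KO 2 and 117.1 CPM of that in KOBLM 3. The part of lymphocyte RNA in the Il10 level was not tested.

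Csf1 and Csf2 encode growth factors that sustain macrophages, M-CSF and GM-CSF. Csf1 was present at 35.01, 16.23 and 31.92 CPM in Con, at 289.8, 109 and 0.0722 CPM in BLM, at 9.646, 131 and 39.38 CPM in KO and at 67.49, 11.61 and 46.92 CPM in KOBLM. BLM 1, BLM 2 and KO 2 were the libraries above 100 CPM, and the groups overlapped in every comparison. The mean was 133 ± 146 CPM in BLM, 60.0 ± 63.2 in KO, 42.0 ± 28.3 in KOBLM and 27.7 ± 10.1 in Con (SD, n = 3 each), and neighbours in that order overlapped. The BLM mean was 4.80-fold that of Con, 2.26 on the log2 scale (SE 1.51, exact permutation p = 0.4, adjusted p = 1 by edgeR). Csf2, which ATII cells use to support alveolar macrophages, had 12 counts in KOBLM 1 and 0 in the other 11 libraries, so its level was below what 3 counts allow in all of those.

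The Csf1 values turned on BLM 3, which held 1 count of it. Without that library BLM was called higher than Con, at 199 ± 128 CPM (SD, n = 2) and a log2 difference of 2.85 (adjusted p = 0.538 by edgeR). KOBLM was then called lower than BLM, at a log2 difference of -2.25 (adjusted p = 1 by edgeR), beside 3.34% of 14084 genes called in that fit. The effect of bleomycin in the knockout minus that in the controls was -3.36 and was called too (adjusted p = 1 by edgeR), beside 4.63% of genes called. With BLM 3 kept, these were -1.66 (SE 1.48, exact permutation p = 0.5, adjusted p = 1 by edgeR) and -2.78 (SE 2.08, adjusted p = 1 by edgeR). The fibroblast marker sum was 61.23 to 395.7 CPM in Con and 809 to 1419 CPM in BLM, and its part in the Csf1 level was not tested.

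**Figure D3:**
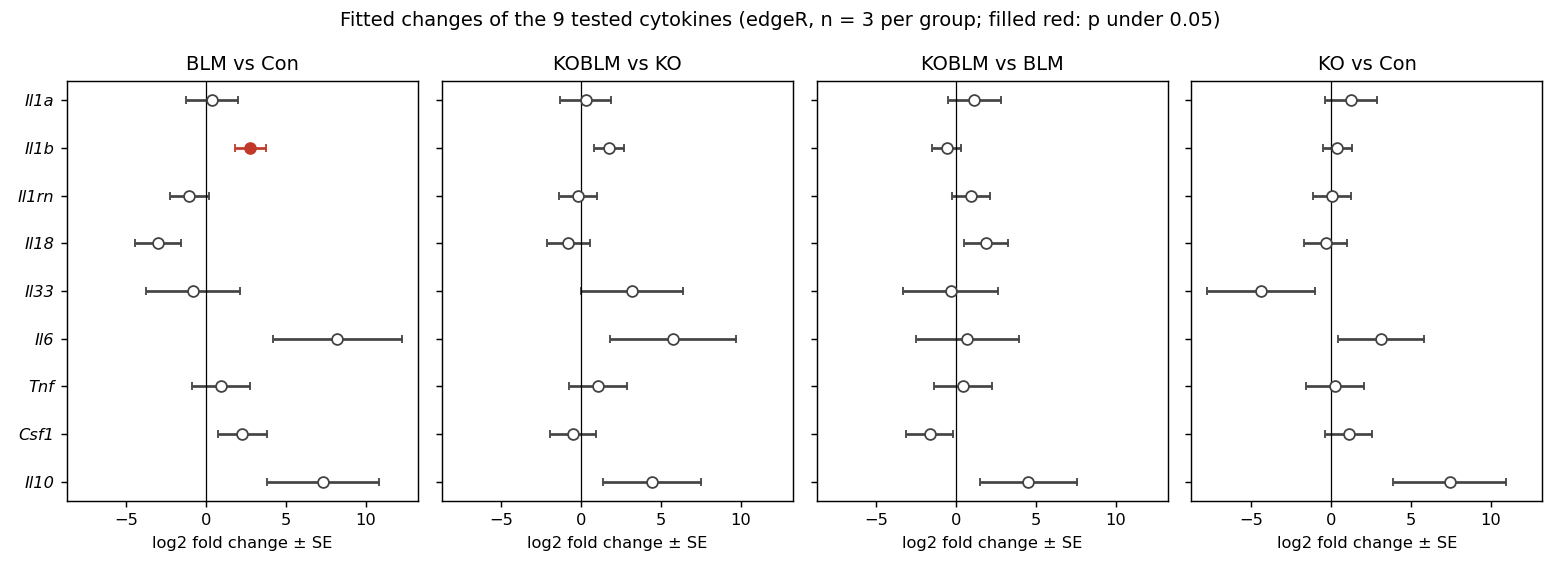
Log2 fold change (points) and its standard error (bars) from edgeR for the 9 tested cytokines in BLM vs Con, KOBLM vs KO, KOBLM vs BLM and KO vs Con, with 3 libraries per group and filled red points for p under 0.05. Il1b in BLM vs Con, at 2.74, is the filled point, and the widest bars belong to Il6, Il10 and Il33, which had libraries at 0 in every group.

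Few cytokines passed the call rule, and few had groups that did not overlap. In BLM against Con 1 of the 9 tested cytokines was called, Il1b, beside 4.27% of all tested genes, and 2 of the 9, Il1rn and Il18, had groups that did not overlap, beside 16.0% of all tested genes. In KOBLM against BLM 0 of 9 were called beside 3.16%, and 1, Il18, did not overlap beside 10.8%. In KO against Con 0 of 9 were called beside 1.44%, and 0 were without overlap beside 9.09%. In KOBLM against KO 0 of 9 were called beside 1.69%, and 1, Il1b, did not overlap beside 6.87%. In the interaction 0 of 9 were called beside 2.82%. With 9 genes these counts are too small to set the cytokines apart from all genes. No gene of the 13054 had an adjusted p under 0.05 by edgeR in any of these comparisons, where DESeq2 gave 114 in BLM against Con, 78 in KOBLM against BLM, 80 in KO against Con, 57 in KOBLM against KO and 85 in the interaction. Without BLM 3, 4 of 9 were called in BLM against Con, namely Il1b, Csf1 and Il10 higher and Il18 lower, beside 5.45% of genes. The comparisons share groups, so their values are not independent of each other. The median log2 fold change of the 9 cytokines was 0.90 in BLM against Con, where that of all tested genes was -0.08, and 1.04 in KOBLM against KO, where it was 0.08.

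Of 16 receptor genes tested, 1 was called higher in BLM against Con, beside 4.27% of all tested genes called in either direction, Il1r2, the decoy receptor that binds IL-1 without signalling, and none lower. Il1r2 had 25, 73 and 500 counts in Con, 2534, 1154 and 221 in BLM, 52, 181 and 437 in KO and 590, 357 and 261 in KOBLM. Its log2 fold change was 3.33 in BLM against Con (SE 1.22, exact permutation p = 0.2, edgeR p = 0.0163, or 0.995 when adjusted). Il1r2 is also a gene of neutrophils. Its highest libraries in Con, BLM and KOBLM were Con 3, BLM 1 and KOBLM 1. These had the highest neutrophil sums of their groups, 3470, 5820 and 2228 CPM. In KO its highest library, KO 3, had the lowest neutrophil sum of that group, 315.5 CPM. The part of neutrophil RNA in the Il1r2 level was not tested. Between KOBLM and BLM 1 of the 16 was called higher, beside 3.16% of all tested genes called, namely Csf2ra, a chain of the GM-CSF receptor. The BLM libraries had 3839, 5153 and 2304 counts of it and the KOBLM libraries 3730, 23675 and 9251, a log2 difference of 1.39 (SE 0.60, exact permutation p = 0.3, edgeR p = 0.0367, or 1 when adjusted). That call was lost without BLM 3, at 0.98. In KO against Con, in KOBLM against KO and in the interaction 0 of 16 were called.

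Of 10 genes for the maturation of these cytokines, inflammasome components, caspases and the TNF-releasing protease, 0 were called in any of the 5 comparisons. The most abundant tested were Adam17, the protease that sheds TNF, at a mean of 158.8 CPM over all libraries, and Nlrp3, the sensor of the inflammasome that activates caspase-1, at 101.2 CPM. Adam17 had 842 to 2683 counts in every library. Nlrp3 had 0 counts in BLM 3 and 9 in KO 3, and between 279 and 1474 elsewhere.

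Of 18 signal transducers 1 was called higher in BLM against Con, beside 4.27% of all tested genes called, namely Jak2, a kinase of several cytokine receptors. It had 150, 245 and 93 counts in Con, 856, 567 and 362 in BLM, 175, 27 and 81 in KO and 498, 1399 and 478 in KOBLM. Scaled to the library, BLM 3 at 26.14 CPM lay just under Con 2 at 26.51 CPM, and the other bleomycin libraries were above all PBS libraries. Its log2 fold change was 2.12 in BLM against Con (SE 0.93, exact permutation p = 0.2, edgeR p = 0.0388, or 0.995 when adjusted). In KOBLM against KO 2 of the 18 were called higher, beside 1.69% of all tested genes called. They were Jak2 at 3.12 (SE 0.97, exact permutation p = 0.1, edgeR p = 0.00606, or 1 when adjusted) and Irak2, a kinase-family protein downstream of the IL-1 receptor, at 1.57 (SE 0.66, exact permutation p = 0.1, edgeR p = 0.0329, or 1 when adjusted). In KOBLM against BLM, in KO against Con and in the interaction 0 of 18 were called.

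Of 13 tested genes that respond to IL-1, TNF and IL-6, 11 had a positive log2 fold change in BLM against Con, beside 47.3% of all tested genes. Of these 2 were called higher there, beside 4.27% of all tested genes called in either direction. The list median was 1.39 where that of all genes was -0.08. Saa3, an acute-phase protein gene, had 0, 27 and 102 counts in Con, 5023, 1759 and 146 in BLM, 41, 258 and 0 in KO and 889, 73 and 749 in KOBLM, and BLM exceeded Con by 6.38 on the log2 scale (SE 2.20, exact permutation p = 0.1, edgeR p = 0.0114, or 0.995 when adjusted). Cxcl2, a neutrophil-attracting chemokine gene, had 6902, 5137 and 7152 counts in Con, 81926, 41065 and 514 in BLM, 17332, 18068 and 3555 in KO and 27309, 5269 and 33516 in KOBLM, and BLM exceeded Con by 3.12 on the log2 scale (SE 1.28, exact permutation p = 0.4, edgeR p = 0.0283, or 0.995 when adjusted). Here too BLM 3 stood below the other BLM libraries. Between KOBLM and BLM 0 of 13 were called.

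Vcam1, an adhesion molecule gene, was the responsive gene called between the genotypes. It had 0, 71 and 475 counts in Con, 109, 70 and 0 in BLM, 0 in all KO libraries and 277, 222 and 45 in KOBLM. KO was at least 46.6-fold lower than Con against the floor of 3 counts per library (exact permutation p = 0.4, edgeR p = 0.0125, or 1 when adjusted). In that comparison 1 of 13 responsive genes was called lower, beside 1.44% of all tested genes called. KOBLM was at least 61.4-fold higher than that floor in KO (exact permutation p = 0.1, edgeR p = 0.011, or 1 when adjusted), again 1 of 13 beside 1.69% of all tested genes, with 12 of the 13 genes at a positive log2 fold change beside 53.8%. The interaction was also called for Vcam1 (adjusted p = 1 by edgeR), 1 of 13 beside 2.82% of all tested genes. Vcam1 counts varied from 0 to 475 within Con.

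Of 23 related cytokines of the IL-1, IL-6, CSF and lymphotoxin families, 12 had a count and 8 were tested. In BLM against Con 1 of the 8 was called, beside 4.27% of all tested genes, and in KOBLM against BLM 1, beside 3.16%. Lif, a gp130 cytokine gene, had 29, 23 and 0 counts in the BLM libraries and none in Con, and was called higher, at least 7.83-fold over the floor (exact permutation p = 0.4, edgeR p = 0.046, or 0.995 when adjusted), as it was without BLM 3 (adjusted p = 0.884 by edgeR). Il34, which encodes another ligand of the M-CSF receptor, was called lower in KOBLM against BLM (exact permutation p = 0.4, edgeR p = 0.0266, or 1 when adjusted). It had 25, 0 and 602 counts in BLM and 0 in all KOBLM libraries, at least 44.15-fold lower. BLM 3 held 602 of these counts, and the call was lost without it. In KO against Con, in KOBLM against KO and in the interaction 0 of 8 were called.

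Leaving out BLM 3, chosen after its values were seen, raised the number of list genes called higher in BLM against Con. Over all genes tested, 5.45% were called in either direction without it. Of the responsive genes 7 of 13 were then called, Saa3 at 6.94, Cxcl2 at 3.71, Lcn2 at 3.58, Socs3 at 3.21, Nfkbiz at 2.27, Nfkbia at 1.90 and Ptgs2, whose fitted 9.70 depends on libraries at 0. Socs3, Nfkbia and Nfkbiz are feedback regulators of cytokine signalling, and Ptgs2 makes prostaglandins. The median log2 fold change of the responsive list was then 1.90. Of the receptors 3 of 16 were called, Il18rap at 4.12, Il1r2 at 3.87 and Csf1r, the receptor of M-CSF, at 1.26. Among the transducers Jak2 and Stat3 were called, at 2.53 and 1.01, 2 of 18, and among the maturation genes Pycard, the inflammasome adaptor, at 2.09. The highest of these adjusted p values was 0.884 and the lowest 0.221 by edgeR. Between KOBLM and BLM, Il1r2 at -2.45 and Stat3 at -0.85 were called lower without BLM 3, with an adjusted p of 1 each. Csf2ra and Il34 were then no longer called. In the interaction Il1r2 at -2.83, Cxcl2 at -2.99, Pycard at -2.12 and Ctf1, a gp130 cytokine gene with a fitted -12.74, were called lower without BLM 3 and Vcam1 was called higher, beside 4.63% of all genes, each with an adjusted p of 1 by edgeR.

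Across the 12 libraries the cytokines fell into no single order. The Spearman coefficients between pairs of the 9 tested genes ran from -0.54 for Il18 and Il10 to 0.77 for Csf1 and Il10. Il1b followed Il10 at 0.71, Tnf at 0.70 and Csf1 at 0.69, and its coefficient with Il1rn was -0.14. The points are 12 libraries of 4 groups that differ in depth and cell makeup, and BLM 3 was low for almost every cytokine.

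Among the 8911 genes with a mean of at least 10 CPM, those whose levels were most like Il1b by the Spearman coefficient over 12 libraries were Lcn2 at 0.944, Lrg1 at 0.923 and Wfdc17 at 0.916. Lcn2 is among the genes listed here as responsive. Those most like Il18 were Ucp3 at 0.972, Tagln2 at 0.958 and Adipor2 at 0.951, and those most like Csf1 were Myo5a at 0.93, Mnda at 0.916 and Ms4a6c at 0.916. For Il1rn they were Zfp503 at 0.937, Ccdc66 at 0.935 and Ccng2 at 0.916. The libraries differ in cell makeup and depth, and a shared order over them does not separate these. The most alike genes reached 0.924 for Il10 (Gpc1, before Ikbke and Dcstamp), 0.917 for Tnf (2410004B18Rik, before Dennd1a and Rnf34), 0.888 for Il1a (Sec13, before Slc38a10 and Capn7), 0.921 for Il33 (Hmg20b, before Arid4a and Ppm1h) and 0.846 for Il6 (Hal, before Unc5b and Pyroxd1). These genes were picked as the highest of many candidates over 12 libraries, and the size of the coefficients was not tested. Their Pearson coefficients ran from 0.519 for Pyroxd1 with Il6 to 0.944 for Tagln2 with Il18. Il6 had no counts in most libraries, so many of its ranks are ties.

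**Figure D4:**
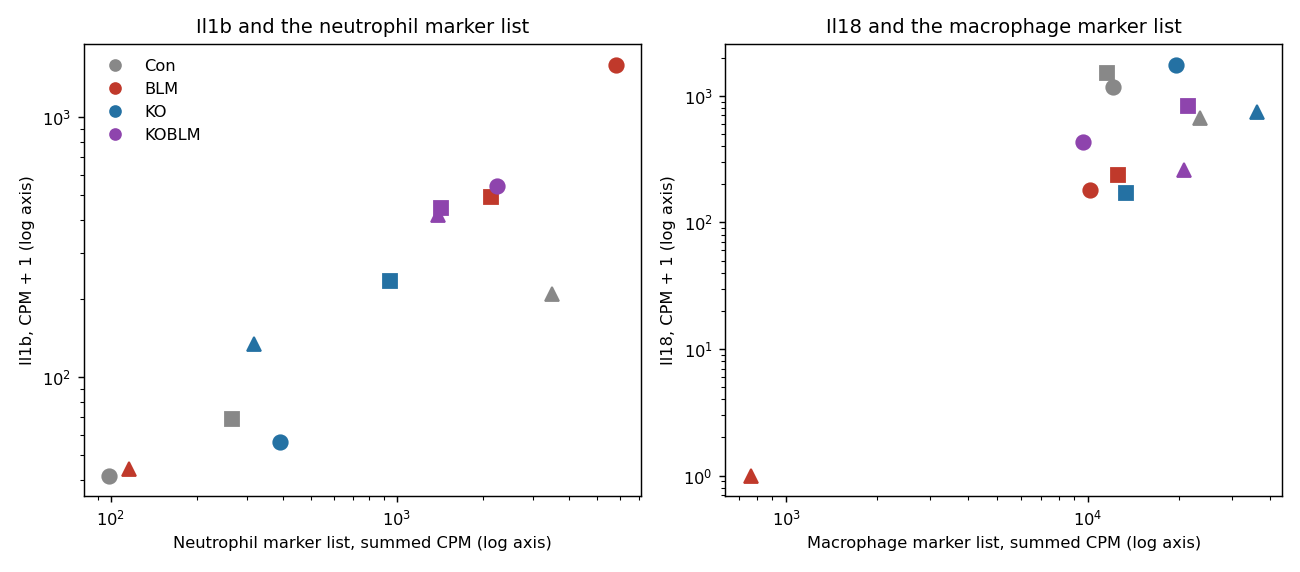
Il1b CPM + 1 against the summed CPM of the neutrophil marker list, and Il18 CPM + 1 against that of the macrophage marker list (all axes logarithmic), 1 point per library, coloured by group, with circles, squares and triangles for replicates 1, 2 and 3. The libraries with the most Il1b lie at high neutrophil sums, with Con 3 at 3470 CPM below them in Il1b, and BLM 3 lies apart at the lowest macrophage sum, 763.1 CPM, with Il18 at 0.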

How the data were processed

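RNA of sorted ATII cells was measured in 12 QuantSeq 3′ libraries, 3 mice per group (Con, BLM, KO, KOBLM), grouped by the sample labels. The authors deposited raw counts of reads per gene symbol without normalization. The submitters' processing notes name Bowtie2, edgeR and mm10. Repeated entries, of 35 symbols, were added up. The cytokines, gene lists and tests were chosen with earlier results of these data known. Genes named in the text are the cytokines, the list genes called in any comparison, otherwise the 2 most abundant of a list, and the 3 genes most like each cytokine. Ep300 and some markers of the cell type lists are named too. Of these, Siglecf, Marco, Ear2, Chil3, C1qa, C1qb, C1qc, Cd74 and Il7r were named outside any rule, with their values known.

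Genes were filtered with filterByExpr (minimum count 10, minimum total 15), scaled by TMM and fitted with the quasi-likelihood test of edgeR 4.0.16 in 1 model of the 4 groups, with 8 residual degrees of freedom and a common dispersion of 2.08. P-values were two-sided and adjusted over 13054 genes (Benjamini-Hochberg), and exact permutation tests of CPM stand beside them. The scripts were tested on simulated data. Promoters came from RefSeq on GRCm38.p6. Alternatives included DESeq2 1.42.0, other scalings and the omission of each library. R 4.3.3 and Python 3.11.15 were used. Whether replicate numbers pair libraries was checked: the correlations of deviations lay between -0.135 and 0.0868. The library of the same number was the best match for every KO library among Con, for KOBLM 1 and KOBLM 2 among BLM and for KOBLM 1 among KO. It was the best match for no BLM library among Con. With correlations this small the libraries were not treated as pairs, and a fit with a replicate block is given as an alternative.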

Additional observations from a re-analysis of the deposited data

Results flagged for a closer look

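The interaction of genotype and bleomycin passed the call rule for Vcam1, with a fitted log2 difference of 11.55 (SE 4.09, adjusted p = 1 by edgeR), a size that depends on the fit because all 3 KO libraries were at 0. It had 0, 71 and 475 counts in Con, 109, 70 and 0 in BLM and 277, 222 and 45 in KOBLM. No interaction of a cytokine passed the call rule by edgeR with all libraries kept, while DESeq2 called that of Il6 lower.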

How the results depend on the processing

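Of 625 values of the cytokines under other settings, 554 kept their direction and side of the call rule, 3 were weaker, 23 stronger and 45 reversed. The spread between libraries of a group, a biological coefficient of variation of 1.44, and BLM 3 limit every result, and levels near 3 counts per library cannot be told from 0.

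The number of cytokines called in BLM against Con, 1 as reported, was 0 with an adjusted p, 8 by fold change alone, 2 with DESeq2 size factors, 2 with library size alone, 3 without a filter on low counts, 0 in a model of only the groups compared, 4 by DESeq2 and 0 to 4 with single libraries left out (0 without BLM 1, 4 without BLM 3). A fit with a replicate block gave 1, Il18 in place of Il1b. Between KOBLM and BLM it was 0 as reported, 7 by fold change alone, 1 without the filter and 0 to 1 with single libraries left out (1, Csf1, without BLM 3). In KO against Con it was 0, then 5, 1 and 2 by fold change alone, without the filter and by DESeq2, and 0 to 1 with single libraries left out (1, Il10, without KO 1 or KO 3). In KOBLM against KO it was 0, then 6 by fold change alone, 1 without the filter, 1 in a model of only the groups compared and 0 to 1 with single libraries left out (1, Il10, without KO 2). In the interaction it was 0, then 7 by fold change alone, 1 by DESeq2 and 0 to 1 with single libraries left out (1, Csf1, without BLM 3). The cause was not tested.

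Of all genes, 558 were called in BLM against Con as reported, 947 by DESeq2 and 292 to 767 with single libraries left out. In KOBLM against BLM 413 were called, 755 by DESeq2, 645 without the filter, 149 in a model of only the groups compared, 262 with the replicate block and 236 to 471 with single libraries left out. In KO against Con 188 were called, 374 by DESeq2, 100 with the block and 88 to 446 with single libraries left out. In KOBLM against KO 221 were called, 460 by DESeq2, 138 in a model of only the groups compared, 100 with the block and 105 to 402 with single libraries left out. In the interaction 368 were called, 625 by DESeq2, 706 without the filter, 242 with the block and 332 to 672 with single libraries left out.

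Reversed log2 fold changes with the replicate block were -0.47 for Tnf in BLM against Con, 3.21 for Il33 and -1.21 for Il6 in KOBLM against BLM, -0.82 for Tnf in KO against Con and 0.20 for Il10 in the interaction. With library size alone Il1rn in KO against Con was -0.020. With single libraries left out, the log2 fold change in BLM against Con ran from -0.071 to 1.32 for Il1a and -0.67 to 1.70 for Tnf. In KOBLM against BLM it ran from -1.15 to 0.81 for Il1b, -1.0002 to 0.24 for Il33, -8.21 to 2.31 for Il6 and -0.19 to 1.98 for Tnf. In KO against Con it ran from -0.13 to 1.36 for Il1b, -0.056 to 0.16 for Il1rn, -1.30 to 0.19 for Il18, 0 to 3.70 for Il6, -0.20 to 1.07 for Tnf, -0.14 to 1.62 for Csf1 and 0 to 8.01 for Il10. In KOBLM against KO it ran from -0.20 to 0.82 for Il1a, -0.65 to 0.22 for Il1rn, -1.37 to 0.17 for Il18, -3.18 to 8.90 for Il6 and -1.04 to 0.73 for Csf1. In the interaction it ran from -1.04 to 0.45 for Il1a, -1.96 to 0.40 for Il1b, -11.39 to 0.70 for Il6, -0.65 to 1.71 for Tnf and -3.77 to 4.54 for Il10.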
